A study of Mus musculus with 132 samples.

Results

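The genes described here are 10 transcription factors of the primitive streak and of early mesoderm, namely T (Brachyury), Eomes, Mixl1, Mesp1, Mesp2, Tbx6, Gsc, Lhx1, Foxa2 and Evx1. They were chosen by name among the 25146 genes of a mouse count table, and all 10 had an entry. Their levels were followed across 23 libraries of poly(A)-minus RNA-seq, in which reads over exons and introns of each gene were counted, so that unspliced RNA contributed to every value. The male mouse embryonic stem cell line E14-TG2a was differentiated in vitro towards blood through 3 stages.

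The libraries formed 7 groups. Undifferentiated wild-type mESCs at day 0 gave 2 libraries, labelled as technical replicates of the line E14. Flk1+ mesoderm at day 4 gave 3 libraries in each of 3 genotypes, and CD41+ hematopoietic progenitor cells (HPCs) at day 7 gave 4 wild-type, 3 P1-CTCF-KO and 5 P2-CTCF-KO libraries. P1-CTCF-KO cells lack the CTCF binding site beside the distal promoter P1 of Runx1, and P2-CTCF-KO cells lack the one beside the proximal promoter P2. Both deletions were made with CRISPR/Cas9 in E14-TG2a cells. Each mesoderm library was 1 clone, named C8.1, C6.1 or B9.3 in wild-type, E7.1, E7.2 or E9.1 in P1-CTCF-KO, and D10.1, D2.1 or E9.1 in P2-CTCF-KO. Clones B9.3, D10.1 and D2.1 gave a second HPC library each, which came from a clone already counted. A P2-CTCF-KO difference is therefore a difference among 3 clones on each side, and p-values measure the spread between these clones and libraries. The paper describes the knock-out clones as sub-clones from separate targeting events. The labels do not say which clones share an event.

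The primitive streak is the site at which epiblast cells of the gastrulating embryo leave the epithelium and become mesoderm or endoderm. BMP, WNT and NODAL signals induce the T-box genes T and Eomes and the homeobox gene Mixl1 in the streak. Mesp1 marks the earliest cardiovascular mesoderm that leaves it, Tbx6 and Mesp2 act in the paraxial mesoderm that forms somites, Gsc, Lhx1 and Foxa2 belong to the anterior streak and its node, and Evx1 to the posterior streak. Blood forms from Flk1+ mesoderm, in which the streak genes are transient.

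Open chromatin was measured by ATAC-seq in wild-type mesoderm and HPCs of the reporter line E14-TG2a-RV, and the deposited peaks were called once per stage on merged libraries, so they have no replicate error. The promoters of Eomes, Mixl1 and Lhx1, the 3 members with the highest mean CPM in P2-CTCF-KO mesoderm when levels are not scaled by gene length, are shown first so that their open bases can be set beside their RNA. Each runs 5′ to 3′ along the gene from 250 bases before to 50 bases after the start in the table, in mm9, with the bases inside a mesoderm ATAC-seq peak in capitals. The Eomes promoter lay at chr9:118387057-118387356 on the plus strand, that of Mixl1 at chr1:182627116-182627415 on the minus strand, and that of Lhx1 at chr11:84338987-84339286 on the minus strand.
Eomes promoter: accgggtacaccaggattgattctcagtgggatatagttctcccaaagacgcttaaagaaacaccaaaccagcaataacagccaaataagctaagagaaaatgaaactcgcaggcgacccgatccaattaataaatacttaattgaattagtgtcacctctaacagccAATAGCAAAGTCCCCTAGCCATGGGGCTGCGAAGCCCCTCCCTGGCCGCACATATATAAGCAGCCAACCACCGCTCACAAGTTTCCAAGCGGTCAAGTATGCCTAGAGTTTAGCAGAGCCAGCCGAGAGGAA
Mixl1 promoter: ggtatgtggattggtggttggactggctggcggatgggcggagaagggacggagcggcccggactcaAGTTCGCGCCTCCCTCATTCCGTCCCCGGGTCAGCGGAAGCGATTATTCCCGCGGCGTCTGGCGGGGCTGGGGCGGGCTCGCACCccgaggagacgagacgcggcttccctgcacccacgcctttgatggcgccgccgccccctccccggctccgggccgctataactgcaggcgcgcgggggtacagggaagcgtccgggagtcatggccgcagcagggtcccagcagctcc
Lhx1 promoter: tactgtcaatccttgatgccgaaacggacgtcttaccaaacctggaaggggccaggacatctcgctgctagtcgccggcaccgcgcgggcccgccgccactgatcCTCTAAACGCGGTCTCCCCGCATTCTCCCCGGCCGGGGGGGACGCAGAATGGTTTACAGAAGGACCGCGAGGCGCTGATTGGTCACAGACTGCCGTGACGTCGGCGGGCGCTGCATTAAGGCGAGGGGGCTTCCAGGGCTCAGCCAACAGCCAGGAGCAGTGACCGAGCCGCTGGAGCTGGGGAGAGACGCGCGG
At Eomes and Lhx1 the open bases covered the start, whereas at Mixl1 they ended before it.

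A further pair of sequences carries the letters of known binding motifs, in capitals. The motifs searched on both strands were TCACACCT (T-box), CTTTGAT (TCF/LEF) and TGTNNATT (FOXH1), and none of the matches in the members overlapped another. The Mixl1 window at chr1:182627497-182627796 on the minus strand, centred on its second mesoderm peak, held a FOXH1 and a TCF/LEF match. The Mesp1 promoter at chr7:86938427-86938726 on the minus strand held a TCF/LEF match and then a T-box match.
Mixl1 upstream window: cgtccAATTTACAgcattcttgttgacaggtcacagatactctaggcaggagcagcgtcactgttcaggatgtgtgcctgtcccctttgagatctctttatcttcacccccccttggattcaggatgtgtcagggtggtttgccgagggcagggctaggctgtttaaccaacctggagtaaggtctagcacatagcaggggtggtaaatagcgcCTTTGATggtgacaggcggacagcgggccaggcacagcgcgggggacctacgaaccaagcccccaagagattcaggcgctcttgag
Mesp1 promoter: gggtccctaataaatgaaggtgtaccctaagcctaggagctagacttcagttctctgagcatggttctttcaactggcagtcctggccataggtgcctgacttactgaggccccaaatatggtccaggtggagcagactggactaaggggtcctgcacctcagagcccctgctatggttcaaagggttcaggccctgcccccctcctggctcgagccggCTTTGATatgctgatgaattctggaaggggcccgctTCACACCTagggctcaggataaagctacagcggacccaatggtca
These letters are matches only, and binding of the factors was not measured.

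Library depth set what could be seen. Undifferentiated libraries held 20532578 to 24283287 counts, mesoderm libraries 18233679 to 24406998 and HPC libraries 7805102 to 13513677, but ribosomal RNA and genes listed at several loci took 68.1 to 76.3%, 88.8 to 91% and 87.8 to 89.1% of them. The other genes shared 4858658 to 7748566, 1897917 to 2288976 and 878966 to 1584401 counts per library. Levels are given as CPM, the counts scaled to a common library size after TMM normalization over the 23 libraries. Its factors were 0.382 in wild-type mesoderm clone C6.1 and 0.422 in P2-CTCF-KO mesoderm clone D2.1, against at most 1.14 in mesoderm. Undifferentiated libraries had factors of 6.95 and 4.59, which lower their CPM. There 1 count was 0.00593 and 0.0106 CPM, against 0.0596 CPM in wild-type mesoderm clone B9.3. A level near 3 counts, the limit that a count of 0 allows, corresponded to a mean of 0.242 CPM in wild-type mesoderm, 0.243 in P2-CTCF-KO mesoderm and 0.289 in wild-type HPCs. These limits and the intervals below cover counting error only. Kdr, which encodes the Flk1 protein used for the sort, lay between 17.3 and 40.2 CPM in all 9 mesoderm libraries and Itga2b, which encodes CD41, between 11.7 and 79 CPM in 11 of the 12 HPC libraries and just below that range in P2-CTCF-KO library D2.1.

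The 3 genes of the streak core were all present in mesoderm and differed widely between clones. T, the gene of the T-box factor Brachyury (chromosome 17, 8627287 to 8635361, plus strand), had 0.179 CPM in wild-type mesoderm clone B9.3, 1.94 CPM in C6.1 and 0.308 CPM in C8.1, or 3, 16 and 5 counts. In P1-CTCF-KO mesoderm T had 0.239, 1.46 and 0.405 CPM in clones E7.1, E7.2 and E9.1, and in P2-CTCF-KO mesoderm 6.07, 3.88 and 3.61 CPM in clones D10.1, D2.1 and E9.1. Every P2-CTCF-KO clone lay above every other mesoderm clone, while wild-type and P1-CTCF-KO overlapped. In bulk RNA, more cells that express a gene and more RNA per cell cannot be told apart. Undifferentiated cells had 0.113 and 0.0424 CPM of T, and HPCs had no count apart from 1 in P2-CTCF-KO library D2.1.

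Eomes, a T-box factor needed for mesoderm and endoderm to leave the streak (chromosome 9, 118387306 to 118395250, plus strand), had 0.835, 5.69 and 1.72 CPM in the wild-type clones in the same order. It had 3.29, 4.77 and 1.82 CPM in P1-CTCF-KO and 12.3, 26.7 and 12.2 CPM in P2-CTCF-KO mesoderm. Mixl1, a paired-type homeobox factor of the streak (chromosome 1, 182623178 to 182627165, minus strand), had 0.775, 4.6 and 1.48 CPM in wild-type, 3.35, 5.55 and 1.69 CPM in P1-CTCF-KO and 10.3, 33.8 and 15.7 CPM in P2-CTCF-KO mesoderm. For both genes the lowest P2-CTCF-KO clone was above the highest of the other 6 clones, and D2.1 was the highest of all. Undifferentiated libraries had 0.273 and 0.0849 CPM of Eomes and 0.0178 and 0.0849 CPM of Mixl1.

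**Figure D1:**
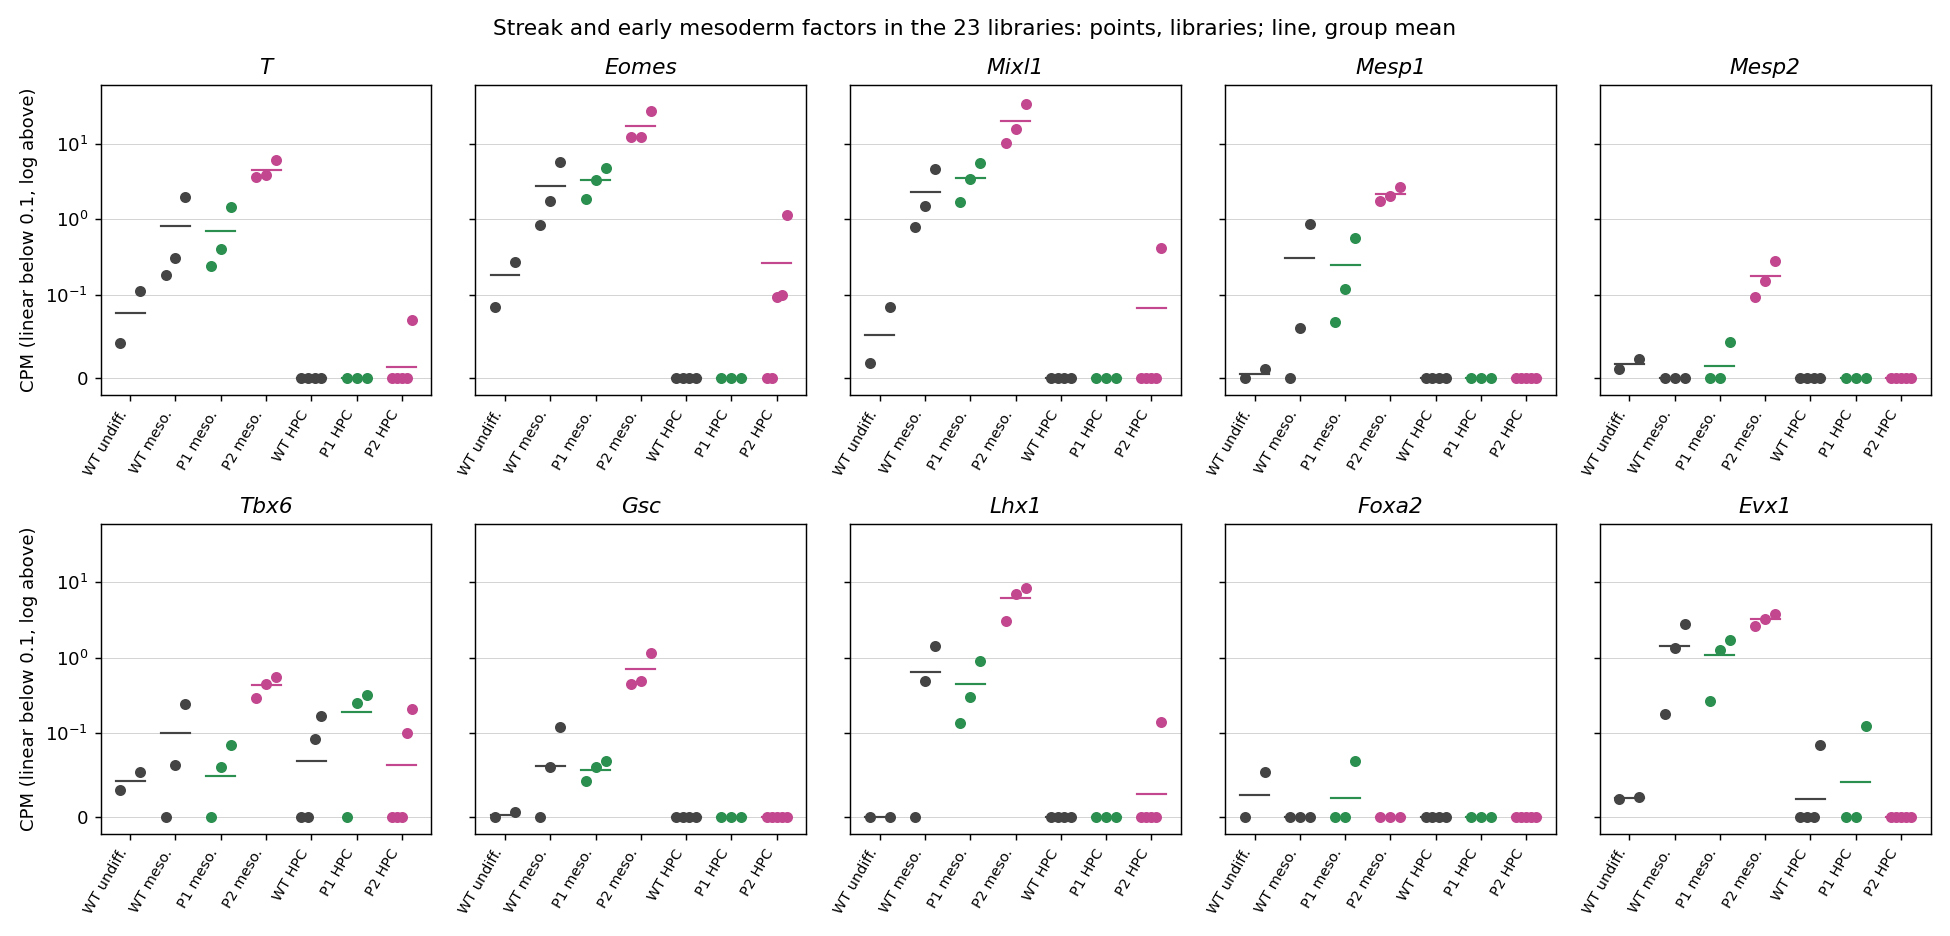
Levels of the 10 genes in the 23 libraries, 1 panel per gene, in CPM on an axis that is linear below 0.1 and logarithmic above; points are libraries and lines group means. T, Eomes, Mixl1, Mesp1 and Lhx1 stand highest in the 3 P2-CTCF-KO mesoderm libraries, and HPC points lie at or near 0, with the P2-CTCF-KO library D2.1 at 1.12 CPM for Eomes.

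Among the genes of nascent mesoderm, Mesp1 was the best covered. This bHLH factor of early cardiovascular mesoderm (chromosome 7, 86937126 to 86938476, minus strand) had 0.0596, 0.848 and 0 CPM in wild-type, 0.12, 0.559 and 0.0674 CPM in P1-CTCF-KO and 2.68, 1.75 and 2.03 CPM in P2-CTCF-KO mesoderm. The P2-CTCF-KO values rested on 38, 18 and 27 counts and the others on 0 to 13. Mesp2, a neighbour on the same chromosome (86955612 to 86958317, plus strand) that acts in somite segmentation, had no count in wild-type mesoderm, 1 in P1-CTCF-KO and 7 in P2-CTCF-KO, all at or near the limit of detection. Tbx6, a T-box factor of presomitic mesoderm (chromosome 7, 133924996 to 133929062, plus strand), had 3 counts over the wild-type clones, 3 over the P1-CTCF-KO clones and 17 over the P2-CTCF-KO clones of mesoderm. Tbx6 also had 12 counts in HPCs, spread over 6 of the 12 libraries with at most 3 in each.

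Of the members placed above with the anterior streak, Lhx1 had the most counts in mesoderm and Foxa2 the fewest. Lhx1, a LIM homeobox factor (chromosome 11, 84331476 to 84339036, minus strand), had 0, 1.45 and 0.492 CPM in wild-type, 0.299, 0.903 and 0.135 CPM in P1-CTCF-KO and 8.4, 7.08 and 3.09 CPM in P2-CTCF-KO mesoderm. Its P2-CTCF-KO clones were above all others, with D10.1 the highest. Gsc, a homeobox factor of the organizer (chromosome 12, 105709418 to 105711446, minus strand), had 0 to 2 counts in each wild-type and P1-CTCF-KO clone and 7, 12 and 6 counts, or 0.494, 1.16 and 0.452 CPM, in P2-CTCF-KO. Foxa2, the forkhead factor of node and definitive endoderm (chromosome 2, 147868612 to 147872705, minus strand), had 0 counts in all wild-type and P2-CTCF-KO mesoderm libraries and 1 in P1-CTCF-KO clone E9.1, and was not detectable at this depth.

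Evx1, an even-skipped homeobox factor of the posterior streak (chromosome 6, 52263491 to 52268372, plus strand), had 0.179, 2.79 and 1.35 CPM in wild-type, 1.26, 1.72 and 0.27 CPM in P1-CTCF-KO and 3.25, 2.62 and 3.84 CPM in P2-CTCF-KO mesoderm. Here the highest wild-type clone, C6.1, lay inside the P2-CTCF-KO range. The antisense gene Evx1os overlaps the start of Evx1 and was counted at 0.202 to 2.61 CPM in mesoderm. The strand setting of the counting was not stated, so reads of this pair cannot be told apart.

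Clones of the same genotype also differed from one another. Summed over the 10 genes, the P2-CTCF-KO clones D2.1, D10.1 and E9.1 had 77.4, 44.3 and 41.5 CPM. Wild-type clone C6.1 followed with 17.6 CPM and P1-CTCF-KO clone E7.2 with 15.1 CPM. Below them came P1-CTCF-KO E7.1 with 8.68 CPM, wild-type C8.1 with 5.54 CPM, P1-CTCF-KO E9.1 with 4.52 CPM and wild-type B9.3 with 2.09 CPM. The wild-type clones thus spread over a wider ratio than the P2-CTCF-KO clones, and wild-type and P1-CTCF-KO clones were mixed in the order. Parts of this order rest on the TMM factors, lowest in C6.1 and D2.1. Of all counts, C6.1 had 145 of 21634629, E7.2 352 of 20424259 and E7.1 145 of 20024082, so C6.1 was below both unscaled. P2-CTCF-KO clones D2.1, D10.1 and E9.1 had 798 of 24406998, 628 of 19570543 and 552 of 18421682, closer together than in CPM.

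Eomes and Mixl1 together made up most of the sum in every clone. In wild-type clone B9.3 Eomes gave 40% and Mixl1 37.1% of it, in C6.1 32.4 and 26.2%, and in C8.1 31.1 and 26.7%. In P1-CTCF-KO clones E7.1, E7.2 and E9.1 the shares were 37.9, 31.5 and 40.3% for Eomes and 38.6, 36.6 and 37.3% for Mixl1. In P2-CTCF-KO clones D10.1, D2.1 and E9.1 they were 27.7, 34.5 and 29.3% for Eomes and 23.2, 43.7 and 37.9% for Mixl1, and Lhx1 gave 18.9% in D10.1. Evx1 took a larger share in wild-type clone C8.1, at 24.4%, than in clone B9.3, at 8.57%, a share that rested there on 3 counts. Per kb of gene span, where levels of different genes can be compared, the P2-CTCF-KO means were 5.01 CPM per kb for Mixl1, 2.15 for Eomes, 1.59 for Mesp1, 0.818 for Lhx1, 0.663 for Evx1 and 0.56 for T. Over 3 clones the SDs were 3.09 for Mixl1 and 1.05 for Eomes. Both genes were measured in the same clones, so these SDs cannot decide their order, which was not tested.

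**Figure D2:**
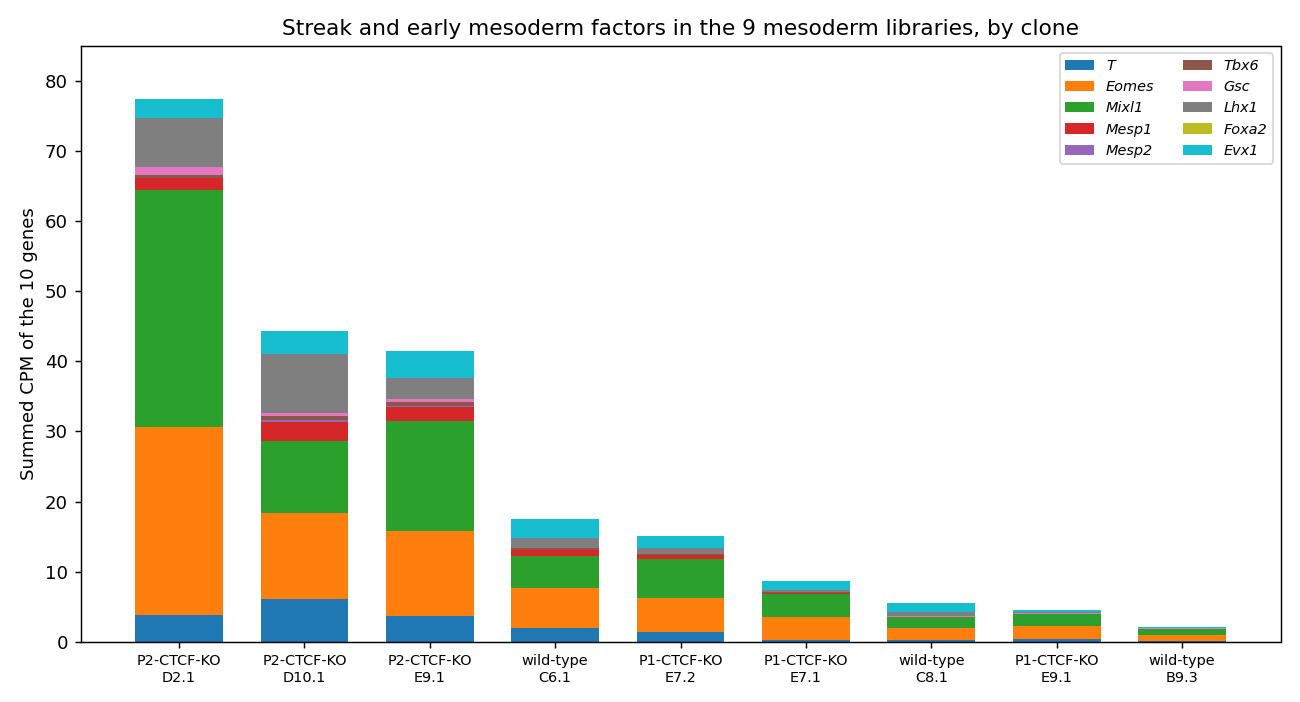
Summed CPM of the 10 genes in each mesoderm clone, ordered from the highest, with each bar divided by gene. The P2-CTCF-KO clones D2.1, D10.1 and E9.1 reach 77.4, 44.3 and 41.5 CPM, and Eomes and Mixl1 make up most of every bar.

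From undifferentiated mESCs to wild-type mesoderm, 4 members passed the filter on low counts and all 4 rose. This filter kept genes with about 10 counts or more in as many libraries as the smallest group, so a member could pass through mesoderm alone and the count is a description. The undifferentiated libraries are technical replicates, so their arm holds 1 biological sample. T rose by a log2 fold change of 3.03 ± 0.958 (SE, 3 against 2 libraries; edgeR quasi-likelihood adjusted p = 0.046). Eomes rose by 3.86 ± 0.865 (edgeR adjusted p = 0.012), Mixl1 by 5.55 ± 0.962 (edgeR adjusted p = 0.0039) and Evx1 by 5.75 ± 0.941 (edgeR adjusted p = 0.0013) on the log2 scale. With the technical replicates summed, Mixl1 and Evx1 were called (edgeR adjusted p = 0.034 and 0.029) and T and Eomes were not (edgeR adjusted p = 0.22 and 0.086), and without techRep1 Evx1 was the member called. Over all genes 1386 of 12899 tested, 10.7%, were called higher at an adjusted p under 0.05 and a log2 fold change over 1. Lhx1 had no count in either undifferentiated library. After TMM scaling it was at least 26.2-fold higher in mesoderm, at the limit of 3 counts per library, a bound of 9.93-fold without clone C6.1. Mesp1 had 1 count in undifferentiated cells and 8 in mesoderm, a ratio of 51 after scaling (exact 95% interval 6.83 to 2260), but 7 of the 8 came from clone C6.1. The Lhx1 bound and the Mesp1 ratio also rest on TMM factors of 6.95 and 4.59 in the undifferentiated libraries. Neither was recomputed without these factors. Without any normalization factor the median of all genes moved from −0.18 to −3.29 on the log2 scale and the T value changed sign to −0.34. RiboMinus depletion was stated for undifferentiated mESCs and not for the other stages, so stage and library preparation cannot be told apart in this comparison.

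In HPCs of every genotype T, Eomes, Mixl1, Mesp1, Lhx1, Gsc and Evx1 were at or near 0, from higher counts in mesoderm. Tbx6 was low at both stages, with 3 counts in mesoderm and 3 in HPCs in wild-type, 3 and 5 in P1-CTCF-KO and 17 and 4 in P2-CTCF-KO. Mesp2 and Foxa2 had no HPC count and no count in wild-type mesoderm. Members could pass the filter through mesoderm alone here too, in each genotype, which fixes the direction. The counts of members that fell are therefore descriptions, and nothing is read from them against the shares of all genes. In the wild-type, T, Eomes and Mixl1 had no count in any of 4 HPC libraries and were at least 2.8-, 9.52- and 7.91-fold lower than in mesoderm, and Evx1 had 1 count against 48, 49.3-fold lower after scaling (exact 95% interval 8.44 to 1990). The 4 tested members fell, with edgeR adjusted p-values of 0.039 for T, 0.0044 for Eomes, 0.0046 for Mixl1 and 0.006 for Evx1, beside 12.5% of all genes called lower. Lhx1 and Mesp1 were also without counts in wild-type HPCs, at least 2.24- and 1.05-fold lower, and were not tested. Without mesoderm clone C6.1 the bounds were 4.43-fold for Eomes and 3.9-fold for Mixl1, T, Mesp1 and Lhx1 had none, and T and Evx1 were no longer tested, while without clone B9.3 the Lhx1 bound was 3.37-fold. Without mesoderm clone C6.1 or C8.1, 2 members instead of 4 were called in this step and likewise in the step from undifferentiated cells.

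In P1-CTCF-KO, Eomes and Mixl1 were the members tested, and both fell (edgeR adjusted p = 0.00053 and 0.00091), a description for the reason above. Neither had a count in 3 HPC libraries, which placed them at least 7.75- and 8.3-fold lower than in mesoderm, and 18.1% of all genes were called lower. T, at least 1.65-fold lower, and Lhx1, at least 1.05-fold lower, also had no HPC count, and without mesoderm clone E7.2 neither had a bound. Lhx1 had none either without HPC library E7.2 or E9.1. Evx1 had 1 count against 65 in mesoderm, 26.8-fold lower (exact 95% interval 4.64 to 1070), and that count was in HPC library E9.1.

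In P2-CTCF-KO, where mesoderm started highest, 5 members were tested and fell, again a description since mesoderm alone could pass the filter. Over all genes 10% were called lower. Eomes fell by 5.76 ± 0.835 and Mixl1 by 7.43 ± 0.817 on the log2 scale (SE; edgeR adjusted p = 0.0019 and 0.00073). T went from 174 counts over 3 libraries to 1 count over 5, 256-fold lower after scaling (exact 95% interval 45.3 to 10200; edgeR adjusted p = 0.00025), and Lhx1 from 233 to 2, 171-fold lower (46.9 to 1420; edgeR adjusted p = 0.00046). Evx1 had no HPC count, at least 11.8-fold lower (edgeR adjusted p = 0.0012). Of the untested members, Mesp1 was at least 7.83-fold and Gsc at least 2.56-fold lower.

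HPC library D2.1 of P2-CTCF-KO held most of the streak counts that were left. It had 16 counts of Eomes, 6 of Mixl1, 2 of Lhx1, 1 of T and 28 over the 10 genes, or 1.96 CPM, against 0 to 3 counts in each of the other 11 HPC libraries. The second HPC library of the same clone, D2.1-2, had 0.099 CPM in sum. Some other markers also stood apart in that library. Kdr was at 18.2 CPM against 2.62 to 11.2, Aplnr at 2.17 CPM against 0 to 0.649 and the pluripotency gene Pou5f1 at 0.28 CPM against 0 in all others. Itga2b, with 144 counts, and the erythroid factor Gata1, at 1.33 CPM against 2.61 to 5.7, were lowest there. Pdgfra, at 0.14 CPM against 0 to 0.516, and Runx1, at 53.2 CPM against 42.8 to 156, lay within the range of the others. Their part in the streak counts was not tested. Without this library Eomes fell by 8.09 on the log2 scale (edgeR adjusted p = 2.2e-05), and Mixl1 had no HPC count and was at least 68.5-fold lower.

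In mesoderm, the design set clones of each deletion against wild-type clones of the same stage. All 6 tested members had higher means in P2-CTCF-KO than in wild-type, by 5.59 times for T, 6.2 for Eomes, 8.73 for Mixl1, 7.12 for Mesp1, 9.54 for Lhx1 and 2.25 for Evx1. None passed the adjusted test. The log2 fold changes were 2.78 ± 0.758 for T (SE, 3 against 3 clones; edgeR adjusted p = 0.15), 2.76 ± 0.607 for Eomes (edgeR adjusted p = 0.13) and 3.26 ± 0.655 for Mixl1 (edgeR adjusted p = 0.11). Mesp1 differed by 3.31 ± 0.904 and Lhx1 by 3.54 ± 0.812 (edgeR adjusted p = 0.15 and 0.13), and Evx1 by 1.32 ± 0.698 (edgeR adjusted p = 0.39).

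Over all 8778 genes tested, 3 were called between these groups and 0 were called higher, 0%. At an unadjusted edgeR p under 0.05, 551 genes, 6.28%, were higher, and these included 5 of the 6 tested members, all but Evx1. Members could pass the filter through the P2-CTCF-KO clones alone, in this comparison and in that against P1-CTCF-KO. Counts of members set beside shares of all genes are therefore descriptions in both. With DESeq2, T, Eomes and Mixl1 were called (adjusted p = 0.043, 0.0018 and 0.00013), among 25 genes called higher of 7250 tested, 0.345%. The members' edgeR result also depended on wild-type clone C6.1: without it 5 members were called, among 127 genes, and the ratios of means rose to 18.6 for T, 13.3 for Eomes, 17.7 for Mixl1, 25.1 for Lhx1 and 4.22 for Evx1, while Mesp1 kept 1 wild-type count. Without wild-type clone B9.3 the ratios were 4.03 for T, 4.6 for Eomes, 6.57 for Mixl1 and 6.36 for Lhx1, without wild-type clone C8.1 that of Mesp1 was 4.74, and without P2-CTCF-KO clone D2.1 that of Mixl1 was 5.7. All 3 P2-CTCF-KO clones lay above all 3 wild-type clones for 5 of the 6 tested members, all but Evx1, beside 8.85% of all genes tested, and also for Mesp2, Tbx6 and Gsc, which were not tested. With no normalization factor this held for all 6 tested members beside 2.08% of genes, and with totals over entries other than ribosomal RNA and multi-locus genes for all 6 beside 3.27%. Tbx6 and Gsc had ratios of 6.19 (exact 95% interval 1.79 to 33) and 9.11 (2.78 to 47.1) on summed counts.

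The direct comparison of the deletions, P2-CTCF-KO against P1-CTCF-KO mesoderm, gave differences of similar size. The log2 differences were 2.63 ± 0.698 for T, 2.37 ± 0.571 for Eomes, 2.497 ± 0.601 for Mixl1, 2.97 ± 0.8 for Mesp1, 3.69 ± 0.771 for Lhx1 and 1.57 ± 0.674 for Evx1. None was called by edgeR, with adjusted p between 0.21 for Lhx1 and 0.43 for Evx1, and neither was any other gene (0%), while all 6 had an unadjusted p under 0.05, as did 4.56% of all genes in the higher direction. DESeq2 called T, Eomes and Mixl1 (adjusted p = 0.045, 0.0081 and 0.0068), with 0.264% of all genes called higher. The P2-CTCF-KO clones lay above those of P1-CTCF-KO for all 6 tested members, beside 7.19% of genes tested, and for Mesp2, Tbx6 and Gsc. With no normalization factor this held for Eomes, Mixl1, Mesp1 and Lhx1 among the tested, beside 0.57%, and with totals over other entries for all tested but Evx1, beside 0.866%. On summed counts Gsc had 12.1 times (exact 95% interval 3.69 to 62.6) and Tbx6 8.22 times (2.38 to 43.8) its P1-CTCF-KO level.

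P1-CTCF-KO and wild-type mesoderm could not be distinguished in these genes. The log2 differences were 0.15 ± 0.828 for T, 0.38 ± 0.615 for Eomes, 0.76 ± 0.66 for Mixl1, 0.34 ± 1.07 for Mesp1, −0.15 ± 0.984 for Lhx1 and −0.25 ± 0.734 for Evx1, and each edgeR adjusted p was 1. Neither edgeR nor DESeq2 called a gene in this comparison (0% higher), 168 genes had an unadjusted edgeR p under 0.05, and no member had P1-CTCF-KO clones all above wild-type, beside 4.16% of genes. The errors are wide, and the sign of T, Eomes, Mesp1, Lhx1 and Evx1 changed when a clone was left out, and that of Lhx1 and Evx1 also with no normalization factor. The 3 mesoderm comparisons share their clones.

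**Figure D3:**
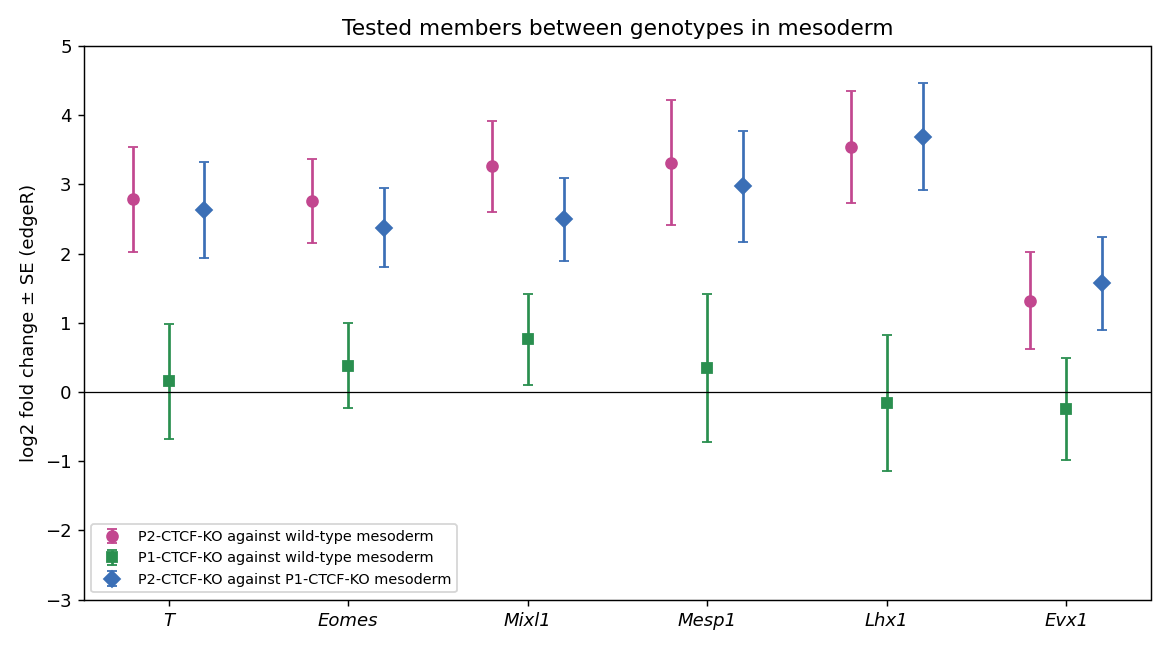
Log2 fold changes from edgeR with their SE for the 6 tested members in the 3 mesoderm comparisons, 3 clones against 3. The P2-CTCF-KO comparisons lie between 1.32 and 3.69, and those of P1-CTCF-KO against wild-type lie around 0.

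Signals and partner genes of the streak were read from a list of 20. It summed to 19.4 to 21.8 CPM in undifferentiated cells and to 19.8 to 27.5 CPM in wild-type mesoderm. In that step 5 of 12 tested were called higher and 5 lower, beside 1386 and 1761 of all 12899 genes. In P2-CTCF-KO against wild-type mesoderm 11 were tested, 0 were called and the median log2 difference was 1.65, against 0.0089 over all genes. The difference was above 0 for 9 of the 11 and below 0 for the others. These genes, too, could pass the filter through the P2-CTCF-KO clones alone. For 8 of the 11 the P2-CTCF-KO clones lay above all wild-type clones, beside the 8.85% given above. They were Snai1, the repressor of E-cadherin in cells leaving the streak (2.05 ± 0.317, edgeR adjusted p = 0.07), the PDGF receptor gene Pdgfra (1.29 ± 0.201, edgeR adjusted p = 0.07), the growth factor gene Fgf8 (3.26 ± 0.665, edgeR adjusted p = 0.11), the WNT inhibitor gene Dkk1 (2.15 ± 0.46, edgeR adjusted p = 0.12), the NODAL co-receptor gene Tdgf1, Foxh1, Sp5 and Wnt3. Pdgfra had 5.66 to 8.72 CPM in the wild-type clones, 7.22 to 8.56 CPM in P1-CTCF-KO and 14.2 to 17.9 CPM in P2-CTCF-KO. Of the 11 list genes, 8 had P2-CTCF-KO clones all above those of P1-CTCF-KO and 1 had them all below. Of all 8778 genes tested, 631 and 976 did. In the step to HPCs all called genes of this list fell. They were 9 of 12 tested in wild-type, 7 of 7 in P1-CTCF-KO and 8 of 8 in P2-CTCF-KO. Over all genes 12.5, 18.1 and 10% were called lower. List genes could pass the filter through an earlier stage alone, so these counts are descriptions. Pdgfra, Snai1, Aplnr, Foxh1 and Wnt3 were called in each genotype.

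Genes of blood and endothelium were summed over a list of 20 in the same clones. They had 201 CPM in wild-type B9.3, 159 in P1-CTCF-KO E9.1, 78.7 in wild-type C8.1, 113 in P1-CTCF-KO E7.1, 62.3 in P1-CTCF-KO E7.2, 58.5 in wild-type C6.1, and 46.7, 33 and 41.1 CPM in P2-CTCF-KO E9.1, D10.1 and D2.1, given here from the lowest to the highest sum of streak factors. Fli1, an ETS factor of endothelium and blood, had 32.5 CPM in wild-type clone B9.3, 13.4 CPM in C8.1 and 3.15 CPM in C6.1, and 0.141, 1.55 and 2.41 CPM in P2-CTCF-KO clones D10.1, D2.1 and E9.1. Its D10.1 value lay below the level of 3 counts, 0.212 CPM in that clone. Within wild-type not every gene followed the sum: Runx1, the blood factor whose CTCF sites were deleted, had 4.11 CPM in B9.3, 12.6 CPM in C6.1 and 15.9 CPM in C8.1, and Ikzf1, a lymphoid and blood factor, had 0.477, 2.06 and 3.39 CPM. Tal1, a bHLH factor of blood and endothelium, had 2.56 to 3.15 CPM in wild-type and 0.141 to 1.66 CPM in P2-CTCF-KO, the lowest of these again below 3 counts. Genes of this list could pass the filter through wild-type or P1-CTCF-KO clones alone, so the counts that follow are descriptions. In P2-CTCF-KO against wild-type clones, 16 of this list were tested and 0 called by edgeR, with a median log2 difference of −3.17. The P2-CTCF-KO clones lay below all wild-type clones for 13, beside 10.5% of all genes tested. The other 3 were Pecam1, Runx1 and the sort gene Kdr, which had a log2 difference of −0.0045 ± 0.273 (SE).

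**Figure D4:**
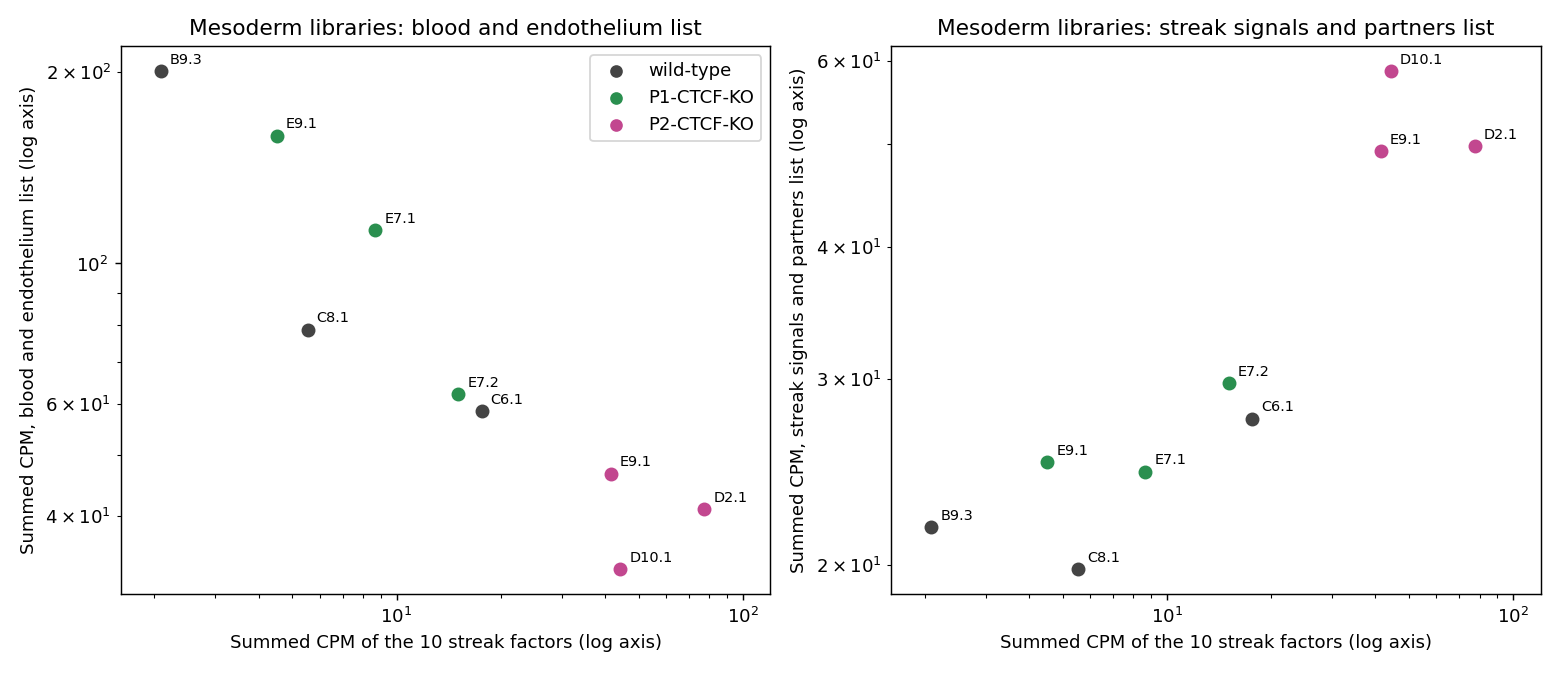
Each mesoderm clone placed by the summed CPM of the 10 streak factors (horizontal, log axis) and the summed CPM of a marker list (vertical, log axis), coloured by genotype. The blood and endothelium list lies between 201 CPM in wild-type B9.3 and 33 CPM in P2-CTCF-KO D10.1, while the streak signal list runs from 19.8 to 58.7 CPM.

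Markers of other tissues were read beside these sums, and their part in the differences was not tested. Pluripotency and epiblast genes, a list of 13, summed to 8.13 to 16.8 CPM in P2-CTCF-KO mesoderm, 6.28 to 10.4 in P1-CTCF-KO and 3.88 to 6.66 in wild-type, against 87.6 to 92.9 CPM in undifferentiated cells. Pou5f1, its defining gene, had 0.527 to 1.55 CPM in P2-CTCF-KO, 0 to 0.215 in P1-CTCF-KO and 0 to 0.308 in wild-type clones, so the P2-CTCF-KO clones were above all others. Some other genes of the list did not separate in this way: Nanog had 0.0753 to 0.565 CPM in P2-CTCF-KO against 0.0598 to 0.301 in P1-CTCF-KO, and Zfp42 0.226 to 0.635 CPM against 0.27 to 1.12. Dnmt3b, a DNA methyltransferase gene, contributed the most in every clone, with 5.42 to 10.9 CPM in P2-CTCF-KO and 1.67 to 5.09 CPM in wild-type, and of the 2 genes tested, Dnmt3b and Klf4, neither was called. Endoderm genes, a list of 12, summed to 9.33 to 14.9 CPM in P2-CTCF-KO and to 4.47 to 8.56 CPM in the other 6 clones. Of 3 tested 0 were called, and they differed in sign against wild-type, with log2 differences of 1.27 ± 0.551 for Cxcr4, 3.34 ± 1.23 for Cdh1 and −2.27 ± 0.857 for Hhex (SE). Cardiac mesoderm genes, a list of 10, summed to 21.5 to 29.8 CPM over all 9 clones, but single genes differed in sign. Against wild-type the log2 differences were 1.18 ± 0.42 for Gata4, −4.63 ± 1.56 for Mef2c and −1.55 ± 0.73 for Hand2 (SE), and of 6 tested 0 were called. Mef2c had 14.9 CPM in wild-type B9.3 and 0.121 CPM in C6.1, the level of 1 count in that library. Paraxial mesoderm genes, a list of 8, had 2.04 to 9.11 CPM in P2-CTCF-KO and 0.8 to 1.82 CPM in the others, and neural genes, a list of 5, 1.75 to 3.46 CPM against 0.606 to 3.16 CPM.

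Across the 9 mesoderm clones the members moved with one another. The Pearson r of each gene's log2(CPM + 1) with that of the other members' sum was 0.989 for Eomes, 0.956 for Mixl1, 0.93 for Lhx1, 0.922 for T, 0.921 for Mesp1, 0.87 for Evx1, 0.865 for Tbx6, 0.795 for Gsc and 0.738 for Mesp2, and −0.36 for Foxa2, which had 1 count. The P2-CTCF-KO clones formed a separate cluster, so these values describe that separation together with any relation within genotypes. Among 8873 other genes the 10 most alike included Fzd7 (r = 0.987), Mark2, Syne3, Ipo5, Mycl, Pdgfra, Efna3, Sinhcaf and Cyp26a1 (r = 0.955). Fzd7, which encodes a WNT receptor, ranged from 2.68 to 23.7 CPM, with group means of 5.73 CPM in wild-type, 6.85 in P1-CTCF-KO and 17.3 in P2-CTCF-KO. Cyp26a1, which encodes an enzyme that breaks down retinoic acid, had group means of 0.912, 0.894 and 3.3 CPM. With a pseudocount of 0.1 in place of 1, 9 of the 10 were still among the 10 most alike.

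Open chromatin was found at the starts of some members. Of the 10 genes, Eomes, Mixl1, Mesp2, Tbx6, Lhx1 and Foxa2 had a mesoderm ATAC-seq peak within 1 kb of the start, 6 of 10 beside 55.2% of all 24959 genes with 1 locus. In HPCs this held for Eomes and Tbx6, 2 of 10 beside 37.1%. In 416B cells, a mouse myeloid progenitor line, 1 member, Mesp1, had a CTCF peak within 1 kb, beside 12.8%. The share of members in mesoderm was thus near the background, and Foxa2 had a peak with no RNA detected while T had RNA without a peak in this window.

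The same promoters could be followed between stages. The HPC list held 29037 peaks from fewer merged libraries, against 76766 in mesoderm. Where an HPC peak is missing, a closed site and a missed peak cannot be told apart. The Eomes peak at chr9:118387225-118387380 (the capitals of its sequence above) overlapped the start and overlapped an HPC peak, although Eomes had no count in 9 of 12 HPC libraries. At Mixl1, mesoderm peaks were centred at −141 and −482 bp from the start and had no HPC counterpart, and at Lhx1 the peak centred at −36 bp had none either. The mesoderm peak nearest to T was centred at −12652 bp, and T had no HPC peak within 50 kb.

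Within 50 kb on each side of the starts there were 74 mesoderm peaks by member, or 67 distinct ones, since Mesp1 and Mesp2 shared 7. Of the 74, 13 overlapped an HPC peak, 17.6%, beside 25.8% of all 76766 mesoderm peaks. The 7 shared peaks, none of which overlapped an HPC peak, count again in the 74. Of the 67 distinct peaks, 13 overlapped. Those 13 belonged to Tbx6 (6 of 12), Eomes (4 of 12), Foxa2 (2 of 8) and Lhx1 (1 of 4), and T, Mixl1, Mesp1, Mesp2, Gsc and Evx1 kept none. The median member had 7.5 mesoderm peaks and 0.5 HPC peaks in this span, against 5 and 2 over all genes.

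**Figure D5:**
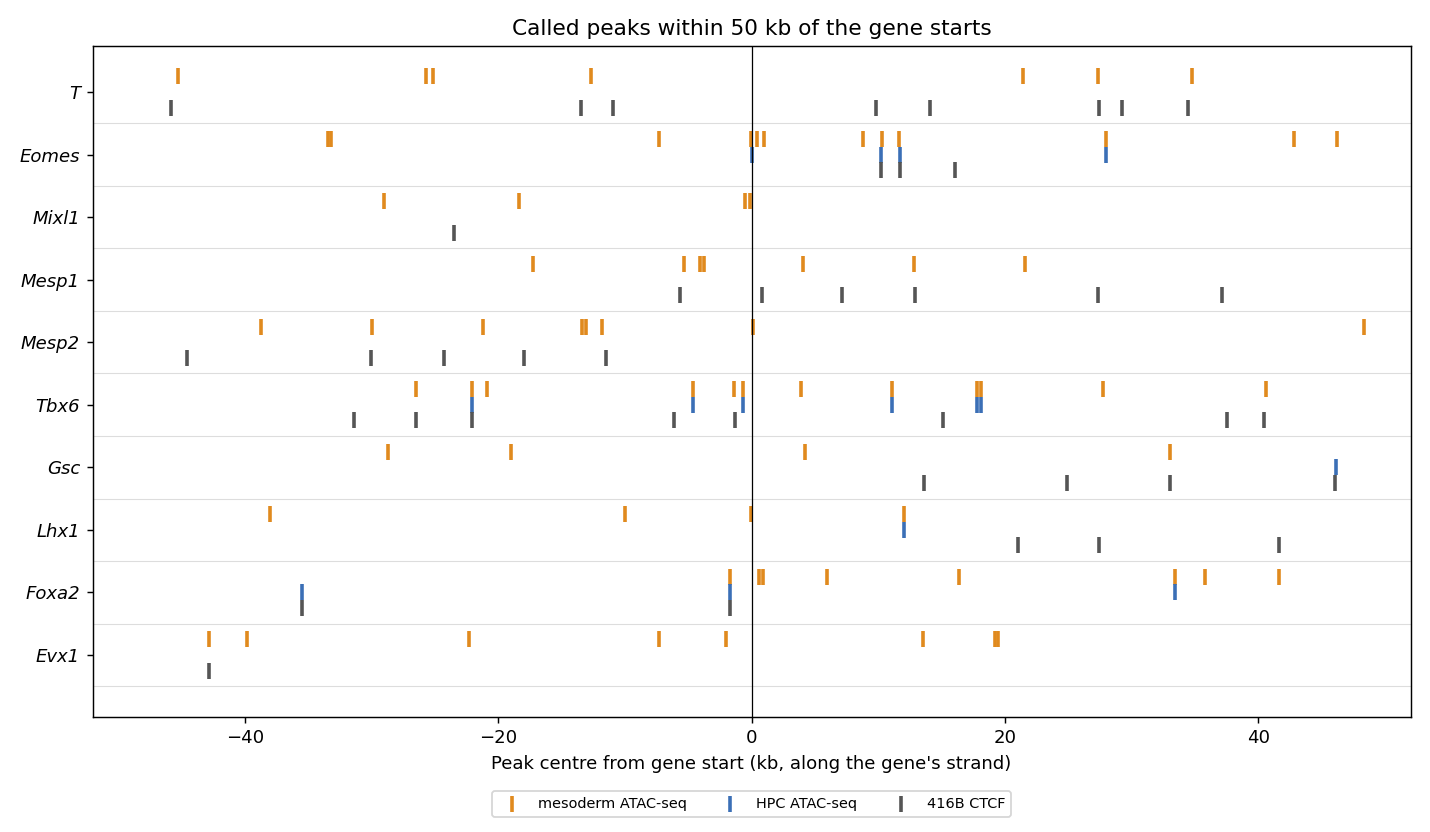
Called peaks within 50 kb of the start of each member, placed by the distance of the peak's centre from the start in kb along the gene's strand: ATAC-seq in mesoderm and HPCs, and CTCF in 416B cells. HPC peaks lie around Tbx6 (6), Eomes (4), Foxa2 (3), Lhx1 (1) and Gsc (1), and T, Mixl1, Mesp1, Mesp2 and Evx1 have none.

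Among the 10 promoters, those of Mixl1, Mesp1 and Mesp2 held motif letters. The T-box letters stood in 1.15% of all promoters and in 1 of the 10 members, Mesp1, where the match began at 5 bases from the start. TCF/LEF letters stood in 3.43% of promoters and in 2 members, Mixl1 (at −62) and Mesp1 (at −31), and FOXH1 letters in 10.9% and in 2 members, Mixl1 (at −246) and Mesp2 (at 24). In windows of 300 bases around peak centres, T-box letters were in 3 of the members' 67 and in 1.55% of all 76764, TCF/LEF letters in 10 of 67 and in 5.33%, and FOXH1 letters in 11 of 67 and in 11.9%. The Eomes FOXH1 match at −33273 lay in overlapping windows and counts more than once among the 11. The Mixl1 upstream window shown above held both a TCF/LEF match, at −417, and a FOXH1 match, at −626.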

How the data were processed

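Poly(A)-minus RNA was sequenced in 23 libraries. Alignment by the authors was to mm9 (STAR), PCR duplicates were dropped, and the counts they deposited were made with featureCounts from exonic and intronic reads. These counts were used as deposited. ATAC-seq peaks from short inserts (MACS2, 1 call per stage on merged libraries) and 416B CTCF peaks were deposited as positions without heights. The strand setting and annotation of the counting are not given in the sources used here, and columns were matched to samples by their names.

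Group, clone and stage came from the labels. Counts were tested with edgeR 4.0.16 in R 4.3.3 (filterByExpr with a minimum count of 10, TMM, quasi-likelihood F-test, Benjamini-Hochberg over all genes tested), and a gene was called where the adjusted p was below 0.05 and the log2 fold change exceeded 1 in size. The 9 wild-type libraries, the 6 of P1-CTCF-KO, the 8 of P2-CTCF-KO and the 9 of mesoderm formed 1 fit each, and no covariate was used. The study used DESeq2, which was run as an alternative (1.42.0). The SE is the fold change divided by the square root of F. Where a group had no count, bounds were set at 3 counts per library, and ratios against 1 to 3 counts carry exact binomial 95% intervals. The script was tested on simulated data. Pairs of libraries of a group differed by a chi-square per gene of 2.53 to 35.1 over 29 pairs, so none was a duplicate. Table starts were moved by 1 base to match mm9. A peak was assigned to a gene where it overlapped the window by at least 1 bp.

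Alternatives were RLE factors, DESeq2, no filter, no fold limit, ribosomal and multi-locus entries left out, a single fit of all libraries, leaving out each library, the clone as a block and summed libraries. Named genes were the 10 members, genes of the marker lists by smallest adjusted p, and the 10 genes most alike, of which 1 is not reported here. Other list genes, among them Fli1, Tal1, Runx1, Ikzf1, Pou5f1, Nanog, Zfp42, Cxcr4, Hand2, Kdr and those that did not overlap between groups, were chosen after their values were seen. The members and lists were chosen with earlier results of these data known. Deposited interaction data and other samples of the series were not used here.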

Additional observations from a re-analysis of the deposited data

Results flagged for a closer look

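In groups of 4 or 5 libraries, 9 sets of values were tested for a library standing far from the rest, and 6 passed Dixon's 95% limit, which chance passes in about 1 of 20 sets of continuous values. That rate does not apply where all other libraries are at 0, as for T, Mixl1, Lhx1 and Evx1, since any count then passes. In P2-CTCF-KO HPCs 5 of the 6 came from library D2.1 and are not independent of each other: T at 0.07 CPM (1 count), Eomes at 1.12 CPM (16 counts), Mixl1 at 0.42 CPM (6 counts), Lhx1 at 0.14 CPM (2 counts) and the 10 genes summed at 1.96 CPM (28 counts). The remaining one was Evx1 in wild-type HPC library B9.3, at 0.0861 CPM, which is 1 count.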

How the results depend on the processing

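Members called, of those tested, were recomputed for each comparison. In wild-type mesoderm against undifferentiated mESCs the count of 4 became 2 with no normalization factor, a setting chosen after seeing the data under which 11913 of 12899 genes were called, 2 with the undifferentiated libraries summed (1142 genes called against 3147), and 1 to 4 with each library left out, the 1 without techRep1 and 2 without techRep2, C6.1 or C8.1. T then had −0.34 with no normalization factor, where the median of all genes was −3.29. Wild-type HPCs against mesoderm gave 2 to 4 called with a library left out. P1-CTCF-KO HPCs against mesoderm gave 4 with DESeq2, 6 with no filter and 4 with all 23 libraries in 1 fit, in place of 2, and 2 to 3 with a library left out. P2-CTCF-KO HPCs against mesoderm gave 5 to 6 with a library left out.

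P2-CTCF-KO against wild-type mesoderm had 0 members called, but 5 with no normalization factor (284 genes called), 3 with DESeq2 (169 genes), 6 with no filter (431 genes), and 0 to 5 with a clone left out, the 5 without wild-type C6.1. Against P1-CTCF-KO mesoderm the 0 became 3 with no normalization factor (246 genes), 3 with DESeq2 (93 genes) and 6 with no filter (267 genes), and stayed 0 with each clone left out. Members with clones all above numbered 9 against wild-type with no normalization factor or with totals over other entries, beside 2.08 and 3.27% of genes tested. Against P1-CTCF-KO they numbered 6 and 8, beside 0.57 and 0.866%. Those members included some of Mesp2, Tbx6 and Gsc, which failed the filter behind these shares, and Mesp2 rested on 7 counts in P2-CTCF-KO. P1-CTCF-KO against wild-type had 0 called under every alternative run. Its signs reversed for T (−0.12 with DESeq2, −0.37 without B9.3, −0.29 without C8.1, −1.04 without E7.2), Eomes (−0.075 without B9.3), Mesp1 (−0.054 with DESeq2, −0.20 without B9.3, −0.41 without C8.1, −1.12 without E7.2), Lhx1 (0.49 with no normalization factor, 0.97 without C6.1, 0.049 without E7.1, 0.21 without E9.1) and Evx1 (0.45 with no normalization factor, 0.55 without C6.1, 0.16 without E9.1). The cause of these changes was not tested. Other member values, 399 in all, kept direction and side of the threshold, 29 passed it newly and 13 lost it.

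Mesoderm and HPC libraries share clone names, but deviations correlated above 0.1 in only 3 of 9 clones, so pairing is only a possibility. With the clone as a replicate block, P2-CTCF-KO HPCs against mesoderm kept 5 members called, with 1698 genes called in place of 1955, and P1-CTCF-KO kept 2. In wild-type the planned block fit tested no member. Over the genes of the reported fit, a choice made after seeing the data, the block gave 4 members and 2561 genes, against 4 and 2660 for the same 7 libraries without it.

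Members with a HPC peak within 1 kb fell from 2 to 1 at 500 bp and to 0 with wider peaks only. Members with a 416B CTCF peak went from 1 to 0 at 500 bp, 3 at 5 kb and 0 with wider peaks only. Low counts limit Mesp2, Tbx6, Gsc and Foxa2, which were seldom tested.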
